A study of Mus musculus with 12 samples.

Results

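The 10 genes described here encode the proteins that sense danger signals for the inflammasome, the adaptor that assembles it, and the pores and channels that work around it. They are the sensors Nlrp3, Nlrc4, Nlrp6, Nlrp10, Naip2 and Aim2, the adaptor Pycard, the pore gene Gsdmd, and the membrane channels Panx1 and P2rx7. They were picked by symbol from the 35275 genes of the kidney count table, with the row of most reads kept for each symbol, and all 10 were found. Kidney poly(A) RNA was sequenced from 12 C57BL/6J mice at 6 months of age, in 3 groups of 4 mice with 2 females and 2 males each. WT mice carried no engineered allele. RC/RC mice were homozygous for the RC knock-in allele of Pkd1, a hypomorphic missense allele that gives slowly growing kidney cysts. RC/RC:Casp1KO mice were homozygous for the same allele and for a deletion in Casp1 made with TALENs. The deletion was kept as 1 line and is present in every cell, so kidney and immune cells lack the same gene, and no group had the Casp1 deletion without the RC allele. Each library was whole kidney, and in such RNA fewer cells of a type and less RNA per cell cannot be told apart.

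An inflammasome is a protein platform that forms in the cytosol when a sensor meets its signal. Sensors of the NLR family and AIM2 recruit the adaptor ASC, the product of Pycard, which brings in pro-caspase-1. Active caspase-1 cuts the precursors of the cytokines IL-1β and IL-18, and it cuts gasdermin D, whose released part forms pores in the cell membrane and lets the cytokines out. Some inflammasome genes, Nlrp3 among them, are themselves induced in a priming step before any platform forms. Their mRNA is no measure of activation, and in whole kidney it can also vary with the number of cells that express them. Macrophages and dendritic cells are the best known users of the pathway, and in the kidney some sensors are also made by tubule cells.

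The table assigned 20556335 to 22656309 reads to genes in WT mice (median 22189082), 18019819 to 24284831 in RC/RC mice (median 21749357.5) and 18738755 to 24869454 in RC/RC:Casp1KO mice (median 19853599.5). Levels are given as CPM, the count of a gene relative to the size of its library after scaling with TMM factors of the 12 libraries, and levels of different genes are compared as FPKM, which is CPM per kilobase of the gene length in the table. Mice are numbered here 1 to 4 within each group, in the order of the table, and the numbers are only names. The column names do not tell the sex of a mouse, and sex was not read from the counts, so no result is given by sex. Mouse 4 of the RC/RC:Casp1KO group stood apart from the other 3. Its Ptprc level, which marks all leukocytes as the gene for CD45, was 58.25 CPM against 16.5 to 24.8 CPM in the others. The log2 fold changes of the 9 genes tested in this group are therefore also given without it. In the WT group, the counts of mice 1 and 2 were close to each other (chi-square per degree of freedom 17.7), as were those of mice 3 and 4 (16.4), while the 4 pairs across these lay at 89.8 to 127.3. The same pairs were closest in RC/RC:Casp1KO, at 15.7 and 31.8 against 67.1 to 93.4. In RC/RC, mice 3 and 4 were closest (37.2), and mice 1 and 2 (69.7) were no closer than mice 2 and 3 (67.6).

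The target gene was read first. Casp1, which encodes the protease of the inflammasome, was at 2.06, 1.29, 1.298 and 1.41 CPM in the 4 WT mice. It was at 3.37, 3.84, 4.26 and 2.62 CPM in the RC/RC mice and at 0.385, 0.664, 0.665 and 1.045 CPM in the RC/RC:Casp1KO mice, where 10 to 23 reads were still counted. The deletion is short, so reads from the rest of the gene can be counted in these mice. The 3 groups did not overlap, with RC/RC highest and RC/RC:Casp1KO lowest. Casp1 was 2.31-fold higher in RC/RC than in WT (log2 fold change 1.21, SE 0.25, adjusted p = 0.0142) and 5.09-fold lower in RC/RC:Casp1KO than in RC/RC (log2 fold change −2.35, SE 0.32, adjusted p = 0.00514). Unless another tool is named, adjusted p-values come from the quasi-likelihood test of edgeR and were adjusted by the Benjamini-Hochberg method over every gene tested in that comparison. Genes with an adjusted p under 0.05 are called DEGs. The p-values measure the spread between the 4 mice of each group.

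The 10 genes differed widely in level. Nlrp6 was the most abundant per length in every group, with a mean of 24.8 ± 10.5 FPKM (SD, n = 4) in WT, 14.9 ± 4.23 FPKM in RC/RC and 33.9 ± 13.2 FPKM in RC/RC:Casp1KO. Pycard followed at 6.31 ± 1.55, 9.65 ± 1.55 and 6.15 ± 0.923 FPKM, and Gsdmd at 2.75 ± 0.559, 4.67 ± 0.667 and 4.42 ± 0.953 FPKM. The best studied sensor gene, Nlrp3, was second lowest in every group, at 0.171 ± 0.0331, 0.383 ± 0.158 and 0.261 ± 0.0826 FPKM. Nlrp10 was lowest, at 0.0682 ± 0.0520, 0.115 ± 0.0300 and 0.0688 ± 0.0493 FPKM, and only 3 to 18 reads were counted on it in any mouse. Not every neighbour in this order was separate. In WT, Nlrp6 and Pycard did not overlap with the gene below them, but from Gsdmd downward each gene overlapped with the next. In RC/RC, Nlrp6 overlapped with Pycard, and the separate steps were Pycard above Gsdmd, Gsdmd above Panx1, Naip2 above Aim2 and Nlrp3 above Nlrp10. The separate steps in RC/RC:Casp1KO were Nlrp6 above Pycard, Gsdmd above P2rx7 and Nlrp3 above Nlrp10. Panx1 rose from the seventh place in WT to the fourth in RC/RC and held the sixth in RC/RC:Casp1KO.

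**Figure D1:**
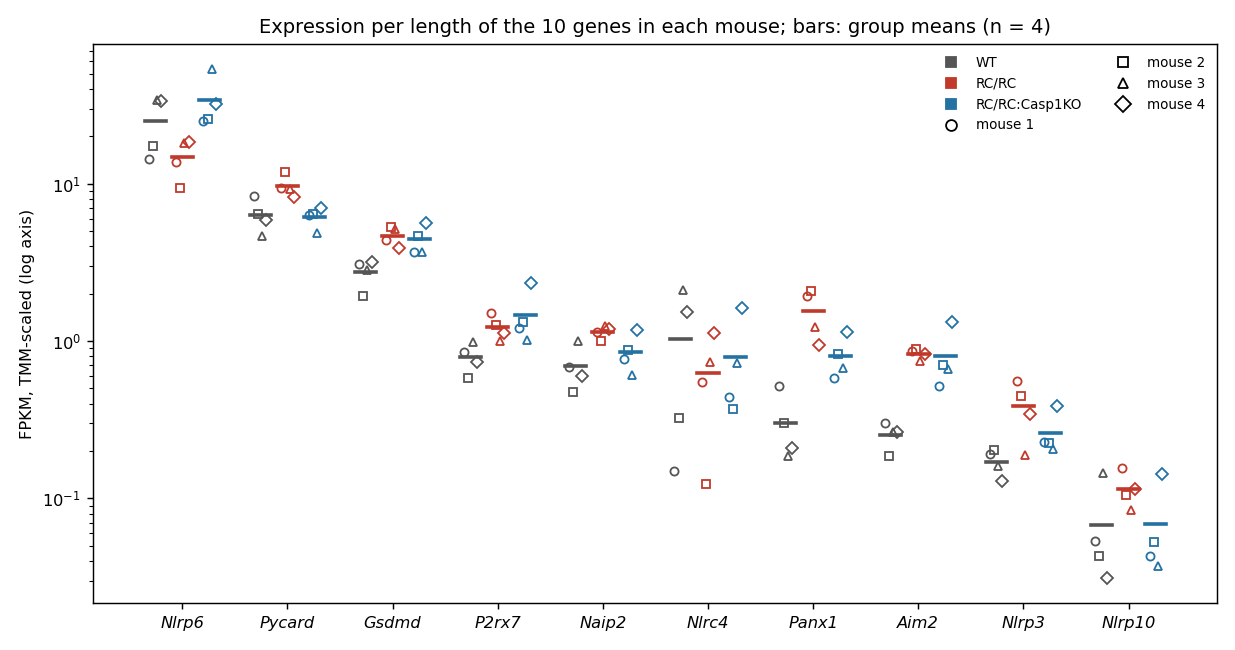
Level of each of the 10 genes in each of 12 mice, in FPKM on a log axis, with symbols for mice 1 to 4 of WT (grey), RC/RC (red) and RC/RC:Casp1KO (blue) and bars at the group means (n = 4). Nlrp6 has the highest group means, 14.9 to 33.9 FPKM, although Pycard exceeds it in RC/RC mouse 2, and Nlrp10 has the lowest. The WT points of Aim2, Panx1, Gsdmd and, by a narrow margin, P2rx7 lie below those of both other groups.

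Promoter windows are shown for the genes whose differences carry the results below: Aim2 and Panx1, which rose in RC/RC, and Pycard and Nlrp6, which moved in opposite directions in RC/RC:Casp1KO. Nlrp3 is added as the sensor whose priming is best known. Each window is the 250 bases before the gene's start in RefSeq's GRCm38.p6 annotation, the build named as mm10 in the submitters' processing notes, written 5′ to 3′ on the gene's strand. An entry was matched for 8 of the 10 genes, and the 2 without one are Gsdmd and Nlrp10. Motifs were searched on both strands. Capitals mark matches to the NF-kB motif or to AGGAAGT, the core sequence recognised by ETS-family factors such as PU.1, which appears as ACTTCCT when it lies on the other strand.
Aim2, chr1:173420354-173420603, plus strand: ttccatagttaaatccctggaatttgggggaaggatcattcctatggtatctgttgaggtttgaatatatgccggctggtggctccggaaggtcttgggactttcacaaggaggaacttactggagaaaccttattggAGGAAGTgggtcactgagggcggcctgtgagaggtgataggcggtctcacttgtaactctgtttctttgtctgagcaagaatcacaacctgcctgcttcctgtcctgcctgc
Panx1, chr9:15045479-15045728, minus strand: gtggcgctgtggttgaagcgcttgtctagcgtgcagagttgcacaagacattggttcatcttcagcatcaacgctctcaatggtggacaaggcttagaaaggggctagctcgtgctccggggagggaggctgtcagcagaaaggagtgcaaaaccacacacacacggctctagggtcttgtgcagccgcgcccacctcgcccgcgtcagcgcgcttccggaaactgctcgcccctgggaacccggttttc
Pycard, chr7:127993868-127994117, minus strand: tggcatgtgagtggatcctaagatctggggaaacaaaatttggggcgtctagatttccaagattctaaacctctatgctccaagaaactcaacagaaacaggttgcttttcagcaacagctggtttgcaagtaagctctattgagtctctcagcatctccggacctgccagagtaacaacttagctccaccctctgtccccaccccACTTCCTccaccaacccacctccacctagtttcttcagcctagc
Nlrp6, chr7:140920652-140920901, plus strand: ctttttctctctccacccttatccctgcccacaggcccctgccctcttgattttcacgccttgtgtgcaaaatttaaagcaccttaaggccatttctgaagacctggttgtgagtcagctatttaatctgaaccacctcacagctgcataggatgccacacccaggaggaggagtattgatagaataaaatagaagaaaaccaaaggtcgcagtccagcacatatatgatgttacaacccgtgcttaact
Nlrp3, chr11:59541319-59541568, plus strand: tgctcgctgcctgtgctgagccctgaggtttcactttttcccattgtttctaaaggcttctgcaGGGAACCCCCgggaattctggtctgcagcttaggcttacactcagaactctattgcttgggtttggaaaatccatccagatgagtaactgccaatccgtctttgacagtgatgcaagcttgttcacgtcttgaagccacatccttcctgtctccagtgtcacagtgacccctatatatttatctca
The start of Aim2 in RefSeq lies 69725 bases inside the start given in the count table, so its window is that of the RefSeq start only. Of the 8 windows, 1 held the NF-kB motif, that of Nlrp3, with its first base 186 bases before the start. Among 32851 promoter windows of the same length, 7.25% held it. AGGAAGT was looked for after these windows had been read. It was found on either strand in 4 of the 8, against 7.69% of all windows: in Aim2 at 112 bases, in Pycard at 44, in Naip2 at 12 and in Nlrc4 at 106 and at 10 bases before the start. The core of the interferon-stimulated response element was in 0 of the 8 (2.98% of all windows), and TTCNNNGAA, the core bound by STAT factors, was also in 0 (7.02%). These are matches of letters in a short window, and no binding was measured.

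The first comparison asked whether inflammasome genes were higher in cystic RC/RC kidneys than in WT kidneys. Panx1, Aim2 and Gsdmd rose. None of the 10 was called lower. Of the 10 genes tested, 3 were upregulated DEGs, and 0 were downregulated, where 9.76% and 3.18% of all 15243 genes tested were, and 12.9% were DEGs in either direction. The log2 fold change was positive for 8 of the 10, and its median over the 10 was 0.73, beside −0.02 over all genes tested. The RC/RC mice lay above the WT mice without overlap in 4 of the 10 and below them in 0, where 12.7% of all genes tested were separate and higher and 6.58% separate and lower.

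Panx1, the gene of a large-pore channel that releases ATP, had the largest difference. It lies on chromosome 9 (ENSMUSG00000031934, chr9:15005161-15045478, minus strand). In WT it was at 1.39, 0.814, 0.499 and 0.562 CPM, and in RC/RC at 5.20, 5.63, 3.29 and 2.53 CPM. The lowest RC/RC mouse was above the highest WT mouse. The 5.055-fold difference (log2 fold change 2.34, SE 0.39, adjusted p = 0.00551) was called without any 1 of the 8 mice and in all 6 other ways of processing the counts.

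Aim2, the sensor of double-stranded DNA in the cytosol, came next. It lies on chromosome 1 (ENSMUSG00000037860, chr1:173350879-173466040, plus strand). Its level in WT was 0.861, 0.5265, 0.749 and 0.750 CPM, from 11 to 18 reads, and in RC/RC 2.44, 2.52, 2.10 and 2.36 CPM. The RC/RC mice were close together and all were far above the WT mice, with a 3.235-fold difference (log2 fold change 1.69, SE 0.25, adjusted p = 0.00296). This call too was made without any 1 mouse and in all 6 other ways of processing. The locus in the table overlaps Cadm3 on the other strand, a gene with 236 reads over the 12 mice against 462 for Aim2. The sources used here do not state whether the counting used strand, so part of the Aim2 reads may belong to Cadm3.

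Gsdmd, the gene of the membrane pore itself, changed less. It lies on chromosome 15 (ENSMUSG00000022575, chr15:75862339-75867404, plus strand). It was at 5.45, 3.45, 5.04 and 5.62 CPM in WT and at 7.79, 9.41, 9.12 and 6.87 CPM in RC/RC. The groups did not overlap, and the difference was 1.685-fold (log2 fold change 0.75, SE 0.20, adjusted p = 0.0391). The call did not hold when 1 mouse was left out, other than RC/RC mouse 4 (adjusted p = 0.0321). Without any other mouse the adjusted p was 0.0582 to 0.111, at log2 fold changes of 0.61 to 0.83.

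P2rx7 also separated the groups without passing the test. It encodes the ATP-gated channel whose opening lets potassium out of the cell, a classical trigger of NLRP3 (ENSMUSG00000029468, chr5:122643911-122691432, plus strand). In WT it was at 4.21, 2.87, 4.89 and 3.61 CPM and in RC/RC at 7.44, 6.26, 4.91 and 5.54 CPM. The highest WT mouse and the lowest RC/RC mouse were almost equal. The log2 fold change was 0.62 (SE 0.22, adjusted p = 0.0958).

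Nlrp3 responds to a wide range of stress signals and is the sensor most often studied in sterile inflammation. Its gene is on chromosome 11 (ENSMUSG00000032691, chr11:59541568-59566956, plus strand). The WT mice were at 0.7655, 0.814, 0.649 and 0.515 CPM, and the RC/RC mice at 2.25, 1.79, 0.755 and 1.37 CPM, from 14 to 58 reads. Mouse 3 of RC/RC fell within the WT range and the other 3 were above it. The log2 fold change of 1.16 (SE 0.36, adjusted p = 0.0660) missed the threshold. Without RC/RC mouse 3 it was 1.38 (adjusted p = 0.0327), and it also passed with DESeq2 (adjusted p = 0.0463) and with all 12 mice in one fit (adjusted p = 0.0433).

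Pycard, the adaptor on which most of these sensors rely, is a short gene on chromosome 7 (ENSMUSG00000030793, chr7:127992103-127993867, minus strand). It was at 11.8, 8.95, 6.54 and 8.20 CPM in WT and at 13.2, 16.6, 12.95 and 11.5 CPM in RC/RC. WT mouse 1 reached the RC/RC range and the other 3 WT mice were below it. The log2 fold change was 0.61 (SE 0.20, adjusted p = 0.0722), and without WT mouse 1 it was 0.77 (adjusted p = 0.0339). It passed with DESeq2 (adjusted p = 0.0447) and with all 12 mice in one fit (adjusted p = 0.0448).

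Naip2 encodes a NAIP, the kind of protein that binds a bacterial protein and hands the signal to NLRC4 (ENSMUSG00000078945, chr13:100144063-100202092, minus strand). It was at 3.30, 2.30, 4.79 and 2.91 CPM in WT and at 5.51, 4.79, 5.99 and 5.71 CPM in RC/RC. WT mouse 3 touched the lowest RC/RC mouse. The log2 fold change was 0.72 (SE 0.24, adjusted p = 0.0842), and it passed without WT mouse 3 (0.92, adjusted p = 0.0295) and with DESeq2 (adjusted p = 0.0404). Its reference transcript shares 95.9% of 662 aligned bases with Naip1, on which 219 reads were counted in all, so some reads may be split between the 2 genes. Nlrp10, an NLR with no leucine-rich repeats, was at 0.141 to 0.649 CPM in WT mice and 0.378 to 0.698 CPM in RC/RC (ENSMUSG00000049709, chr7:108921860-108930158, minus strand). Its log2 fold change of 0.76 (SE 0.50, adjusted p = 0.334) rests on a handful of reads per mouse.

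Nlrp6 and Nlrc4 had negative differences, and neither passed the test. Nlrp6, a sensor known from epithelia of the gut, was at 63.5, 76.5, 151.9 and 148.5 CPM in WT and at 61.0, 41.4, 80.2 and 81.0 CPM in RC/RC (ENSMUSG00000038745, chr7:140920902-140929192, plus strand). Its log2 fold change was −0.75 (SE 0.32, adjusted p = 0.157). Nlrc4, the sensor that works with the NAIPs, was at 0.574, 1.245, 8.14 and 5.90 CPM in WT and at 2.09, 0.473, 2.805 and 4.295 CPM in RC/RC (ENSMUSG00000039193, chr17:74426295-74459108, minus strand). Its log2 fold change was −0.72 with a larger SE of 0.81 (adjusted p = 0.577). The spread inside the groups was of one kind for both genes: mice 3 and 4 of each group were above mice 1 and 2. Among mice 1 and 2, and among mice 3 and 4, Nlrp6 was lower in RC/RC than in WT without overlap. Nlrp3, Pycard and Naip2 were higher in RC/RC in the same way, while Nlrc4 overlapped among mice 1 and 2. The mouse numbers come from the order of the table, so they match no mouse of one group to a mouse of another. The pairs were not part of the planned comparisons, and in RC/RC the counts of mice 1 and 2 were no closer than those of mice 2 and 3. A separation of 2 mice from 2 mice is a description only. The fits took no account of these pairs. Differences between the pairs thus counted as spread within groups in the tests of these genes. Whether Nlrp6 would pass in a fit with a term for the pairs was not tested. Between WT mice 1 and 3, Nlrc4 ranged from 12 to 163 reads. In newer transcript models, Nlrc4 shares 867 bases with its neighbour Slc30a6 at full identity, which is a limit on its count, though the 2 loci do not overlap in the deposited table. In these models Panx1 also shares 462 bases with Gm68912, Pycard 485 bases with Gm45205 and Nlrp10 412 bases with Eif3f. Over all mice, 4330 reads were counted on Slc30a6 and 35492 on Eif3f, far more than on Nlrc4 and Nlrp10.

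**Figure D2:**
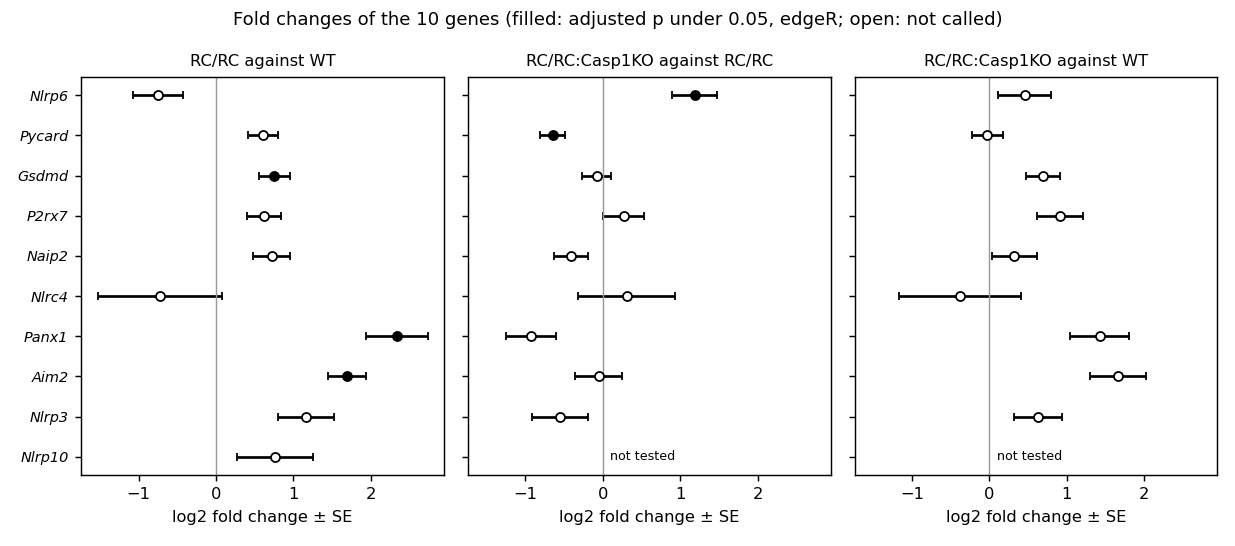
Log2 fold change ± SE of each of the 10 genes in the 3 comparisons (4 against 4 mice each, edgeR), with filled points for DEGs. Panx1, Aim2 and Gsdmd are filled in RC/RC against WT, Nlrp6 on the positive side and Pycard on the negative side in RC/RC:Casp1KO against RC/RC, and no point in RC/RC:Casp1KO against WT. Nlrp10 was tested in the first comparison only.

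The second comparison asked what the loss of Casp1 did to these genes in cystic kidneys. Nlrp6 rose and Pycard fell. Of the 9 genes tested, 1 was an upregulated and 1 a downregulated DEG, where 7.23% and 4.41% of all 15428 genes tested were, and 11.6% were DEGs in either direction. The median log2 fold change was −0.08, beside −0.03 over all genes tested. This comparison uses the same RC/RC mice as the first one, so a gene high in these 4 mice moves up in the first and down in the second. The groups did not overlap for these same 2 genes, 1 in each direction, where 11.3% of all genes tested were separate and higher and 9.18% separate and lower.

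Pycard was at 8.85, 9.06, 6.81 and 9.86 CPM in the RC/RC:Casp1KO mice. All 4 lay under the lowest RC/RC mouse at 11.5 CPM. They lay within the range of the WT mice, 6.54 to 11.8 CPM. The drop was 1.57-fold (log2 fold change −0.65, SE 0.16, adjusted p = 0.0369). The call was lost with library size alone in place of TMM scaling (adjusted p = 0.0929) and without RC/RC mouse 2 or 3 or RC/RC:Casp1KO mouse 1, 2 or 3, when the log2 fold change was −0.675 to −0.51 and the adjusted p 0.0741 to 0.0997. Without RC/RC:Casp1KO mouse 4 it was −0.72 (adjusted p = 0.0424).

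Nlrp6 was at 110.5, 113.7, 235.9 and 141.6 CPM in the RC/RC:Casp1KO mice, and each was above the highest RC/RC mouse at 81.0 CPM. It was 2.28-fold higher (log2 fold change 1.19, SE 0.29, adjusted p = 0.0349). The call held in all 6 other ways of processing the counts. It held without RC/RC mouse 4 and was lost without any other single mouse, where the log2 fold change stayed at 0.88 to 1.31 and the adjusted p was 0.0514 to 0.0721. Without RC/RC:Casp1KO mouse 4 it was 1.22 (adjusted p = 0.0535). Against WT the level was 1.37-fold higher and not called (log2 fold change 0.45, SE 0.35, adjusted p = 0.458, and 0.48 without mouse 4).

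Panx1 was lower in the RC/RC:Casp1KO mice on average and did not pass the test. It was at 1.58, 2.23, 1.83 and 3.09 CPM, where only mouse 4 entered the RC/RC range. The log2 fold change was −0.93 (SE 0.32, adjusted p = 0.0846), −1.14 without RC/RC:Casp1KO mouse 4 (adjusted p = 0.0636) and −1.10 without RC/RC mouse 4 (adjusted p = 0.0497). DESeq2 called it (adjusted p = 0.0363). Nlrp3 was at 0.924, 0.901, 0.831 and 1.545 CPM, with a log2 fold change of −0.55 (SE 0.36, adjusted p = 0.327), and of −0.80 without mouse 4. Naip2 was at 3.69, 4.22, 2.94 and 5.68 CPM (log2 fold change −0.41, SE 0.22, adjusted p = 0.232, and −0.60 with adjusted p = 0.0938 without mouse 4).

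Aim2, Gsdmd and P2rx7 had log2 fold changes close to 0 or above it in this comparison. Aim2 was at 1.46, 1.99, 1.88 and 3.77 CPM, with 3 mice below and mouse 4 above all RC/RC mice. Its log2 fold change was −0.05 (SE 0.30, adjusted p = 0.924) and −0.41 without mouse 4 (adjusted p = 0.281). Gsdmd was at 6.54, 8.30, 6.48 and 10.04 CPM (log2 fold change −0.08, SE 0.19, adjusted p = 0.801, and −0.22 without mouse 4), and P2rx7 at 6.00, 6.55, 4.99 and 11.54 CPM (log2 fold change 0.27, SE 0.27, adjusted p = 0.520). For P2rx7 the sign depended on mouse 4, with −0.04 without it. Nlrc4 was at 1.69, 1.42, 2.77 and 6.225 CPM, and its log2 fold change of 0.31 (SE 0.63, adjusted p = 0.767) turned to −0.32 without mouse 4. Nlrp10, at 0.166 to 0.636 CPM from 3 to 14 reads, had too few reads to be tested.

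The third comparison set RC/RC:Casp1KO against WT and shares its mice with both others. None of the 9 genes tested was called by edgeR in the fit of 8 mice, where 2.03% of all 15346 genes tested were DEGs, 1.13% upregulated and 0.893% downregulated. At an unadjusted p under 0.05, 4 of the 9 were higher, against 11.8% of all genes. DESeq2 called 3 genes (Aim2, Panx1 and P2rx7), where it called 5.85% of the 23885 genes with a count in these mice. That share includes genes of few reads, which the edgeR shares given here leave out, so the shares are not directly comparable. Aim2 was also called by edgeR with all 12 mice in one fit (adjusted p = 0.0201) and with library size alone (adjusted p = 0.0444). These settings called 2.27% and 2.29% of all genes. The groups did not overlap for 5 of the 9, all higher in RC/RC:Casp1KO, where 7.47% of all genes tested were separate and higher and 6.22% separate and lower. These were Aim2 (log2 fold change 1.66, SE 0.36, adjusted p = 0.0526), Panx1 (1.42, SE 0.38, adjusted p = 0.0950), P2rx7 (0.91, SE 0.29, adjusted p = 0.138), Gsdmd (0.69, SE 0.22, adjusted p = 0.134) and Nlrp3 (0.62, SE 0.31, adjusted p = 0.272). Without mouse 4 of RC/RC:Casp1KO their log2 fold changes were 1.29, 1.20, 0.59, 0.54 and 0.37. Pycard was level with WT in the mean, with a log2 fold change of −0.03 (SE 0.20, adjusted p = 0.952) that became 0.11 with library size alone, a scaling that moved the median of all genes to 0.14. The difference was 0.32 (SE 0.29, adjusted p = 0.525) for Naip2 and −0.38 (SE 0.79, adjusted p = 0.803) for Nlrc4. Without mouse 4 the log2 fold changes of Pycard, Naip2 and Nlrc4 were −0.10, 0.12 and −1.03.

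The variation within groups was described by pairs of genes. After subtraction of the group means, Pearson's r of log2(CPM + 0.5) over the 12 mice was 0.84 for Nlrc4 and Nlrp6, and −0.87 for Nlrp6 and Pycard. Nlrc4 and Pycard were at −0.70 and Nlrp6 and Panx1 at −0.66. In each group, the mice high in the 2 sensors Nlrp6 and Nlrc4 were mice 3 and 4, and the pairs differ in both genes at once. The column names do not say which mice are the 2 females and 2 males of a group, and sex was not read from the counts. Genes that vary together and a difference between classes of mice were therefore not told apart here. Among the other pairs without Nlrp10, the highest values were r of 0.84 for Aim2 and P2rx7 and 0.81 for Pycard and Panx1. The r of 0.87 for Nlrp10 and P2rx7 and of 0.81 for Nlrp10 and Naip2 rest on the low counts of Nlrp10. The points share libraries and scaling factors, and RC/RC:Casp1KO mouse 4 was the highest of its group in 9 of the 10 genes, all but Nlrp6.

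**Figure D3:**
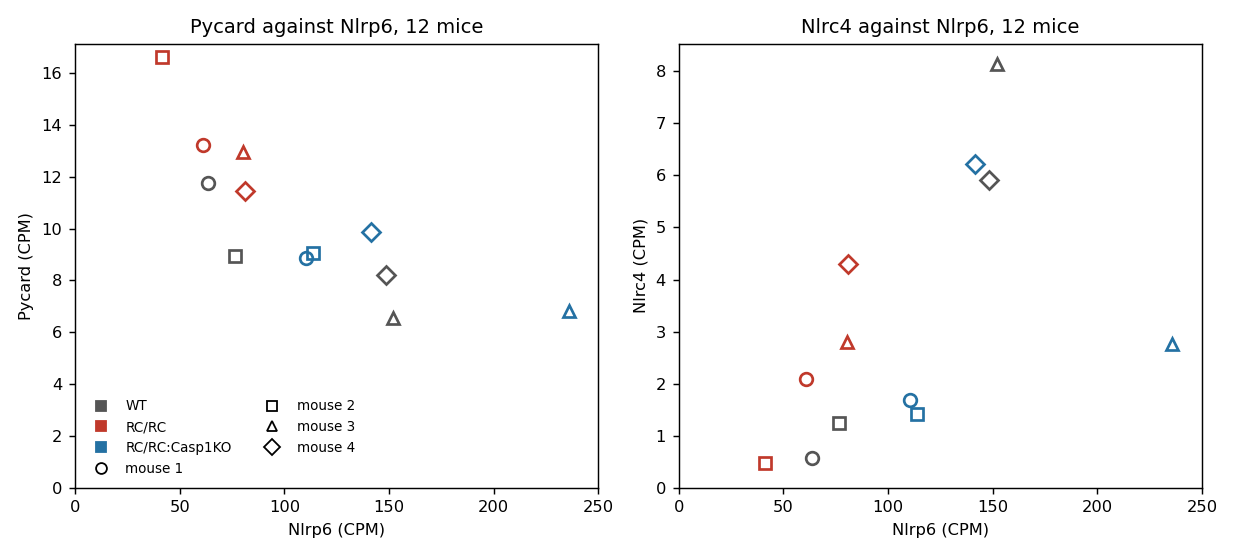
Level of Pycard (left) and Nlrc4 (right) against Nlrp6 in 12 mice, in CPM on linear axes from 0, with symbols for mice 1 to 4 and colours for WT (grey), RC/RC (red) and RC/RC:Casp1KO (blue). Within each group, mice 3 and 4 have more Nlrp6 and Nlrc4 than mice 1 and 2. Over all 12 mice Pycard goes down as Nlrp6 goes up (r = −0.87 within groups), but among RC/RC:Casp1KO mice 1, 2 and 4 it does not.

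The rest of the pathway was read from 37 other inflammasome genes in 3 lists, of which 33 could be tested. In RC/RC against WT, 13 of the 33 were upregulated and 0 were downregulated, beside 9.76% and 3.18% of all genes. Their median log2 fold change was 0.61, beside −0.02. Among caspases and substrates 3 of 7 rose. They were Il1b, the precursor gene of IL-1β (log2 fold change 1.51, SE 0.32, adjusted p = 0.0141), Casp4, whose product caspase-11 senses bacterial lipopolysaccharide in the cytosol (1.22, SE 0.24, adjusted p = 0.0113), and Casp1. Il18 was at 1.005 to 1.298 CPM in WT mice and 1.525 to 2.75 CPM in RC/RC mice, without overlap, at an adjusted p of 0.0660 (log2 fold change 0.83, SE 0.26). Among the other sensors 1 of the 10 tested rose, Ifi204, an AIM2-like DNA sensor (1.44, SE 0.25, adjusted p = 0.00672). The sensor genes Nlrp1a, Nlrp12, Mefv and Nlrp2 were too low to test, with 0 to 20, 0 to 3 and 2 to 17 reads per mouse and, for Nlrp2, 0 reads in every mouse, under the floor of 3 counts. Nlrp1a had 6, 6, 0 and 3 reads in WT, 19, 7, 7 and 7 in RC/RC and 15, 8, 6 and 20 in RC/RC:Casp1KO.

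Regulators were called most often, with 9 of 16 upregulated. Btk, a kinase of B cells and myeloid cells, rose most (1.39, SE 0.26, adjusted p = 0.00912). Ripk3, the kinase that starts necroptosis, followed (1.37, SE 0.33, adjusted p = 0.0266), and Mlkl, its pore-forming target, rose by a log2 fold change of 0.92 (SE 0.21). Zbp1, Syk, Irf1, Gbp2, Gbp5 and Trim30a had log2 fold changes of 0.81 to 1.12 and complete the 9. Irf1 and the guanylate-binding proteins Gbp2 and Gbp5 are known interferon-induced genes. The count of 13 went down to 7 without WT mouse 4 and to 8 without RC/RC mouse 2, where 7.51% and 8.22% of all genes were called.

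In RC/RC:Casp1KO against RC/RC, 1 of the 33 was called, Casp1 itself, where 11.6% of all genes were called, and the median was −0.08, beside −0.03 over all genes. Il1b was at 3.95, 3.79, 2.70 and 1.89 CPM in RC/RC and at 1.96, 1.57, 2.825 and 5.45 CPM in RC/RC:Casp1KO (log2 fold change −0.06, SE 0.40, adjusted p = 0.935). Casp4 was at 3.92, 5.15, 3.40 and 3.48 CPM and at 2.69, 3.89, 2.66 and 5.725 CPM (−0.09, SE 0.29, adjusted p = 0.857). Both ranges overlapped widely, and mouse 4 was the highest of its group for each. The medians of RC/RC and RC/RC:Casp1KO were 3.24 and 2.39 CPM for Il1b and 3.70 and 3.29 CPM for Casp4. Il18 had a log2 fold change of −0.53 (SE 0.32, adjusted p = 0.286). Without RC/RC:Casp1KO mouse 4, 3 of the 33 were called, where 9.04% of all genes were. Without RC/RC mouse 4, 2 were called, where 12.7% of all genes were. Against WT, none of the 33 was called by edgeR in the fit of 8 mice, where 2.03% of all genes were. At an unadjusted p under 0.05, 15 were higher and 3 lower, where 11.8% of all genes were higher and 1533 of the 15346 genes tested were lower. DESeq2 called 7, where it called 5.85% of all genes with a count. With all 12 mice in one fit edgeR called 1, where it called 2.27% of all genes. Without RC/RC:Casp1KO mouse 3, edgeR called 2, where it called 3.5% of all genes. Casp4 (log2 fold change 1.14, SE 0.31, adjusted p = 0.0952) and Il1b (1.46, SE 0.42, adjusted p = 0.114) were higher without overlap.

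**Figure D4:**
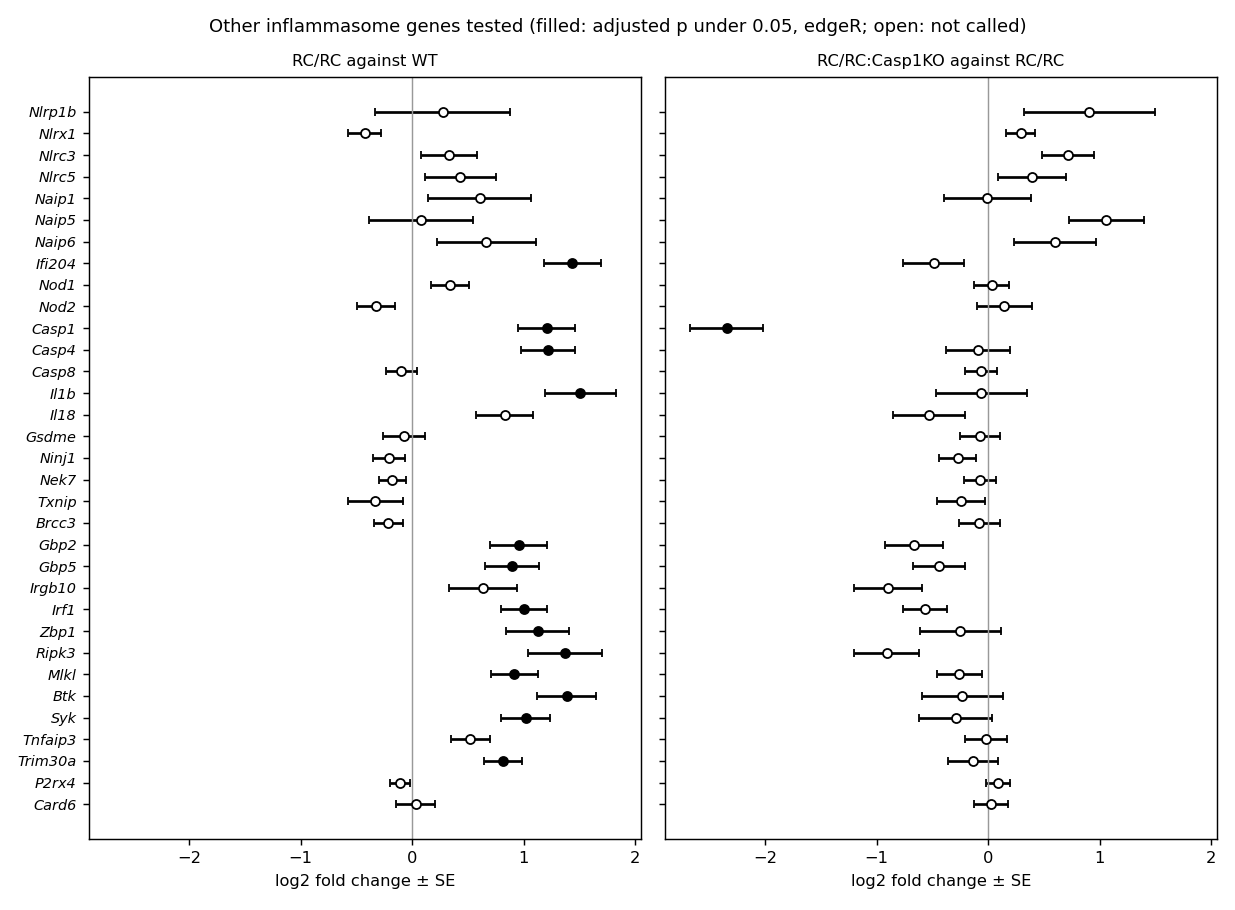
Log2 fold change ± SE of the 33 other inflammasome genes tested, for RC/RC against WT (left) and RC/RC:Casp1KO against RC/RC (right), 4 against 4 mice each, with filled points for DEGs. The left panel has 13 filled points, all on the positive side, and the right panel has 1, Casp1, at −2.35.

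Markers of immune cells also differed between the groups. The summed level of 14 macrophage markers was 217 ± 28.5 CPM (SD, n = 4) in WT, 625 ± 86.8 CPM in RC/RC and 391 ± 169 CPM in RC/RC:Casp1KO. In the last group mouse 4 was at 639.8 CPM and the others at 263.8 to 337.4 CPM. In RC/RC against WT 13 of the 14 rose, by up to a log2 fold change of 2.54 (SE 0.23, adjusted p = 0.000358) for the lysozyme gene Lyz2. The marker not called was Csf1r, the receptor for the growth factor of macrophages (log2 fold change 0.50, SE 0.17, adjusted p = 0.0829). Csf1r was the most abundant of the 14 over the 12 mice, while Lyz2 was the most abundant in RC/RC, at a mean of 149.7 CPM against 100.2 CPM. Of 6 dendritic cell markers 3 rose, of 6 T cell markers 5, and of 4 B cell markers 4, while none of the 3 neutrophil markers tested was called. In this comparison 9.76% of all genes tested were upregulated. The most abundant markers of these 4 lists were Zbtb46, Cd4, Cd79a and Csf3r. The summed level of the dendritic cell markers was 18.4 to 21.9 CPM in WT, 27.3 to 37.7 CPM in RC/RC and 22.3 to 35.1 CPM in RC/RC:Casp1KO. The mean sums were 4.75, 15.9 and 10.7 CPM for the T cell markers, 2.38, 7.26 and 4.63 CPM for the B cell markers, and 2.53, 5.09 and 3.68 CPM for the neutrophil markers, in the same order of groups. Of the 6 neutrophil markers, Ly6g and Mpo were at 0 reads in every WT and every RC/RC:Casp1KO mouse and at 0 to 3 reads in RC/RC, while Csf3r had 10 to 52 reads in WT mice and 64 to 89 in RC/RC mice, without overlap. Ptprc rose by a log2 fold change of 0.87 (SE 0.16, adjusted p = 0.00779).

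In RC/RC:Casp1KO against RC/RC, 3 of the 14 macrophage markers fell, the complement genes C1qa and C1qb and the lipopolysaccharide co-receptor gene Cd14. The groups overlapped for C1qa (adjusted p = 0.0492) and C1qb (adjusted p = 0.0465) and did not for Cd14 (adjusted p = 0.0259). Of the 4 B cell markers 1 fell, Cd79b (adjusted p = 0.0456), and none of the dendritic, T cell or neutrophil markers was called. Of all genes tested, 4.41% were downregulated. Ptprc had a log2 fold change of 0.10 (SE 0.35, adjusted p = 0.867). Its sign rested on RC/RC:Casp1KO mouse 4, at 58.25 CPM. The others of that group were at 16.47 to 24.81 CPM, and the RC/RC mice at 22.98 to 35.94 CPM. Markers of the nephron, led by the phosphate transporter gene Slc34a1, summed to 14860 CPM in WT, 9378 CPM in RC/RC and 13860 CPM in RC/RC:Casp1KO, and none of them was at 0 in any library. Of these 8 markers Slc12a3, of the distal tubule, fell in RC/RC (log2 fold change −2.03, SE 0.33, adjusted p = 0.00444). Lrp2, of the proximal tubule, and Slc12a3 rose in RC/RC:Casp1KO against RC/RC. In RC/RC against WT the log2 fold change was negative for 7 of the 8 and positive for Aqp2 (1.05, SE 0.34, adjusted p = 0.0739). Aqp2 was at 142.9 to 390.0 CPM in WT and at 390.9 to 803.7 CPM in RC/RC. The nephron sums and Nlrp6 were both lowest in RC/RC, while Aqp2, within that list, had its highest mean there. The macrophage, dendritic, T cell, B cell and neutrophil sums had group means in the order WT below RC/RC:Casp1KO below RC/RC. Nlrp3, Nlrp10, Naip2, Aim2, Gsdmd and Panx1 had the same order. Ptprc had its highest mean in RC/RC:Casp1KO, which rested on mouse 4. By the median it was highest in RC/RC, at 28.03 CPM against 24.28 CPM in RC/RC:Casp1KO. What part any of these markers had in the differences of the 10 genes was not tested.

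**Figure D5:**
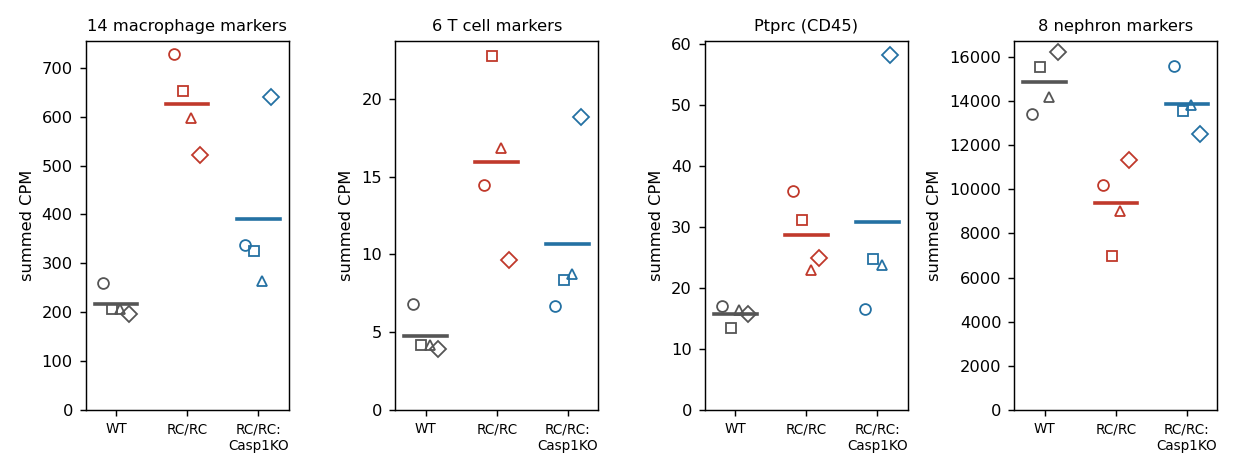
Summed level in CPM of 14 macrophage markers, 6 T cell markers, Ptprc and 8 nephron markers in each mouse (circle, square, triangle and diamond for mice 1 to 4) of WT (grey), RC/RC (red) and RC/RC:Casp1KO (blue), with bars at the group means (n = 4). Mouse 4 of RC/RC:Casp1KO, at 58.25 CPM of Ptprc and 639.8 CPM of macrophage markers, lies above the other 3 of its group. RC/RC is lowest in the nephron sum.

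The genes whose levels followed each of 4 members most closely were taken by Pearson's r of log2(CPM + 0.5) over the 12 mice, among 14154 genes. Aim2 was followed by H2-T10 (0.98), H2-DMb2 (0.98) and Casp4 (0.97), of which the first and second belong to the major histocompatibility complex. H2-DMb2 went from 1.26 CPM in WT to 6.75 CPM in RC/RC and 6.50 CPM in RC/RC:Casp1KO, the same shape as Aim2. Pycard was followed by Rps6kc1 (0.975), Psmb10 (0.97), a subunit of the immunoproteasome, and Pros1 (0.97), the gene of protein S. Psmb10 was at 16.3, 31.1 and 16.7 CPM in the 3 groups, back at the WT level in RC/RC:Casp1KO as Pycard was. Nlrp3 was followed by Arhgap19 (0.94), Epsti1 (0.935) and the immunoglobulin segment Igkv6-23 (0.91), and Gsdmd by Adam19 (0.965), Ssc5d (0.96) and Eno2 (0.95). For Nlrp6, which was added after its values were seen, the closest were Notum (0.96), Gm10804 (0.95) and Mroh7 (0.95). The points share libraries and group differences, and these values are a description only.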

How the data were processed

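The authors sequenced poly(A) RNA from 12 kidneys and deposited one table whose counts per gene and mouse are raw, without normalization. Per the labels, CASAVA 1.8, STAR and mm10 were used, and the counting tool and strand setting are not given in the sources used here. The fold changes, p-values, FPKM and group means that the table also holds were not used. Columns of no known group numbered 0. The columns name the group of a mouse and neither its sex nor its replicate number. Each pair of groups was fitted on 8 mice with edgeR 4.0.16 in R 4.3.3 (glmQLFit and glmQLFTest, TMM, filterByExpr), and SE is the log2 fold change over the square root of F. Counts differed beyond sampling noise in all 18 pairs of mice within groups. A zero or low count was judged against a floor of 3 counts, which covers counting error only. On simulated counts for RC/RC against WT (15243 genes), 55 of 99 2-fold and 92 of 99 4-fold changes were recovered by edgeR, with 5 false calls. For RC/RC:Casp1KO against RC/RC (15428 genes) these were 42 of 90, 96 of 105 and 3, and against WT (15346 genes) 49 of 93, 89 of 99 and 12. DESeq2 made 43, 34 and 45 false calls on the same simulated counts. Shared transcript stretches were sought with BLAST 2.17.0 in GENCODE M39, and promoters came from RefSeq.

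The members and gene lists were chosen with earlier results of these data known. The genes named are the 10 members, Casp1, Casp4, Il1b and Il18, the 6 called genes of the other lists with the largest change at 0.5 CPM or more, the 3 genes most like Nlrp3, Aim2, Pycard and Gsdmd at 1 CPM or more, and the most abundant marker of each list and markers at 0. Other genes were named after their values were seen. All 92 names of the lists were found, 3 of them under older symbols. Alternatives were RLE factors, library size alone, DESeq2 1.42.0 on every gene with a count, no filter on low counts, a mean count of 10, all 12 mice in one fit, and leaving out each mouse.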

Additional observations from a re-analysis of the deposited data

Results flagged for a closer look

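In groups of 4 mice, a level was singled out when its gap to the nearest other mouse, as a share of the range of the group, passed Dixon's critical value for 4 samples. The test was run on 42 groups of the named genes, and chance alone singles out about 1 in 20. Nlrp3 in RC/RC:Casp1KO mouse 4 was at 1.545 CPM against 0.831 to 0.9235 CPM in the other 3 mice, a gap of 0.870 of the range. Nlrp10 in the same mouse was at 0.636 CPM against 0.166 to 0.237 CPM (0.849), from 14 reads against 3 to 5. Casp1 in WT mouse 1 was at 2.06 CPM against 1.29 to 1.41 CPM (0.852).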

How the results depend on the processing

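No paired analysis was possible because the count columns carry mouse numbers and not the replicate numbers of the labels. DESeq2, run with its own size factors on every gene with a count, gave more DEGs than edgeR. It moved the DEGs of RC/RC against WT from 1971 to 2996, of RC/RC:Casp1KO against RC/RC from 1797 to 3172 and of RC/RC:Casp1KO against WT from 311 to 1397, and library size alone lowered the 1797 to 993. Leaving out 1 mouse gave 1162 to 2440, 438 to 2789 and 108 to 547. Of the 10 genes, the 3, 2 and 0 called became 6, 3 and 3 with DESeq2 and 5, 2 and 1 with all 12 mice in one fit. With library size alone 1 was called in each of the latter comparisons. When 1 mouse was left out, 2 to 3, 0 to 3 and 0 were called. Of all genes with a count, genes of few reads included, DESeq2 called 12.7%, 13.3% and 5.85%. The fit of all 12 mice called 16.7%, 12.7% and 2.27% of the genes that passed its filter. Library size alone called 6.44% and 2.29% in the latter comparisons. Of the other inflammasome genes, the 1 called in RC/RC:Casp1KO against RC/RC became 5 with DESeq2, and the 0 against WT became 7, or 1 with all 12 mice in one fit. Leaving out 1 mouse gave 7 to 14, 1 to 3 and 0 to 2 in the 3 comparisons. Differences near 0 changed sign. In RC/RC:Casp1KO against RC/RC, Aim2 was at 0.0044 with library size alone, and leaving out 1 mouse gave −0.41 to 0.12 for Aim2, −0.22 to 0.0138 for Gsdmd, −0.32 to 0.76 for Nlrc4 and −0.0446 to 0.41 for P2rx7. In RC/RC:Casp1KO against WT, Pycard was at 0.11 with library size alone and −0.17 to 0.14 without 1 mouse, and Nlrc4 at −1.03 to 0.20. The upregulated share of DEGs was 75.4%, 62.1% and 55.9% in the 3 comparisons, and 86.1%, 82.0% and 79.8% with library size alone. The other log2 fold changes of the 10 genes kept their sign under these alternatives. The cause of these shifts was not tested. At 11 to 18 reads per WT mouse for Aim2 and 3 to 18 in any mouse for Nlrp10, counting error limits what can be seen.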
